A study of Mus musculus with 30 samples.

Results

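Meg3, Malat1 and 8 further long noncoding RNA genes, Rian, Mirg, Neat1, Miat, Snhg11, Snhg14, Kcnq1ot1 and Peg13, were followed in the striatum and in the subventricular zone (SVZ) of the same mice, and the question was whether the share of RNA that such nuclear transcripts hold differs between libraries. The 10 genes were all found in both count tables, of 50508 genes in the striatum and 53278 in the SVZ. They were listed by name with earlier results of these libraries known, including the comparison of ablated with control mice, so their fitted changes describe the list and are not independent evidence for it. In the striatum, reads on the 10 genes made up 1.91% to 2.12% of the counts in the ablated mice and 0.649% to 1.73% in the control mice.

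These RNAs are made by RNA polymerase II and most of them stay in the nucleus. Meg3, Rian and Mirg are read in the same direction from the maternal copy of the imprinted Dlk1-Dio3 domain, and Rian and Mirg are hosts of small nucleolar RNAs and microRNAs. Malat1 gathers in nuclear speckles, where splicing factors are stored, Neat1 is the scaffold of paraspeckles, and Miat forms separate nuclear dots in neurons. Snhg11 and Snhg14 are host genes of small nucleolar RNAs, and Snhg14 runs antisense through Ube3a on the paternal chromosome. Kcnq1ot1 is the imprinted antisense RNA that silences its neighbours in the Kcnq1 domain, and Peg13 is an imprinted RNA from within an intron of Trappc9. Meg3, Miat, Snhg11 and Peg13 are best known from neurons.

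The 15 adult C57Bl/6 mice fell into 4 groups of genotype and treatment, and each mouse gave 1 library of each tissue. NestinTK+ mice carry a viral thymidine kinase driven by the second-intron enhancer of Nestin, so that ganciclovir (GCV), given for 4 weeks from a minipump under the skin, kills Nestin-expressing cells as they divide, and PBS was given as vehicle. The ablated group held 5 NestinTK+ GCV mice (A1 to A5), and the 10 control mice were 3 NestinTK- GCV (G1 to G3), 3 NestinTK- PBS (P1 to P3) and 4 NestinTK+ PBS mice (T1 to T4), the NestinTK- mice being wild-type littermates. The labels give no batch and no sex, the Methods name both sexes, all GCV mice have lower library numbers than the PBS mice so that GCV and this order cannot be told apart, and p-values measure the spread between mice. Genes were tested with edgeR by its quasi-likelihood (QL) method, and p-values were adjusted after Benjamini and Hochberg over all genes of a tissue (BH).

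Striatum libraries held 2.63 to 4.69 M counts, with 2.63 to 3.37 M in the ablated mice, and SVZ libraries 8.36 to 21.1 M. The SVZ is labelled as neural precursor cells although the tissue was dissected. The 10 markers of spiny neurons summed there to 4326 to 13922 CPM (counts scaled to the library size, here with TMM factors) in the ablated mice. In the control mice they summed to 5210 to 11346 CPM. The 12 neuroblast markers summed to 306 to 555 CPM in the ablated and 450 to 1005 CPM in the control SVZ. Igfbpl1, a neuroblast gene, had 0 to 0.249 CPM in the ablated SVZ and 0.667 to 34.7 CPM in the control SVZ. Ttr, the transthyretin gene and leading choroid plexus marker, took over 1% of the counts in SVZ libraries P1, P2 and T1. In such bulk tissue, fewer cells of a type and less RNA per cell cannot be told apart.

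In GRCm38 with the GENCODE vM21 annotation, Meg3 lies on the plus strand at chr12:109541001-109571726 and is followed on the same strand by Rian at chr12:109603940-109661716 and Mirg at chr12:109729764-109749460. Malat1, a single exon of 6983 bases, lies on the minus strand at chr19:5795690-5802672, and Neat1 at chr19:5824708-5845478 is 22035 bases away on the same strand. Miat (chr5:112213228-112229395) and Peg13 (chr15:72805600-72810324) are on the minus strand, and Peg13 is annotated as sense intronic. Snhg11 (chr2:158375638-158386145, plus strand) is annotated as protein-coding in this release, against its place in a list of noncoding RNAs. Snhg14 (chr7:59307924-59975759, minus strand) shares 1803 exon bases with Ube3a on the opposite strand, and Kcnq1ot1 (chr7:143203458-143296549, minus strand) runs antisense to Kcnq1. The SVZ kit does not keep strand, and the sources used here do not give how featureCounts was set for strand, so reads of overlapping genes cannot be fully told apart. Exon bases shared with a gene on the opposite strand also number 2260 in Miat (Gm26953), 1228 in Meg3 (Gm26906), 453 in Malat1 (Gm37376) and, with Kcnq1 itself, 121 in Kcnq1ot1, while Peg13 lies in the intron of Trappc9 and shares no exon bases with it.

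The promoters of Meg3 and Malat1 are shown because these 2 genes hold most of the reads of the list. The sequences, of 250 bases before to 50 bases after the start site, are from RefSeq on GRCm38.p6, which has an entry for 8 of the 10 genes. Both strands were searched for 4 motifs. These were the cAMP response element with the letters TGACGTCA, the box named for its letters TATAAA, the Sp1 box with the letters GGGCGG, and the box with the letters CCAAT. Capitals mark the matches, and those of the second motif lie on both strands and overlap.
Meg3 promoter, chr12:109540746-109541045, plus strand: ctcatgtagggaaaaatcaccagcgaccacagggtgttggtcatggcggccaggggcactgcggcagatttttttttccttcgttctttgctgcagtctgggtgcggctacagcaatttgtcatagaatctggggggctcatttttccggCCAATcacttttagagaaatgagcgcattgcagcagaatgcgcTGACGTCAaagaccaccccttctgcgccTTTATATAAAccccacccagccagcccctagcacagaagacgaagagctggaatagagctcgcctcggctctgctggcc
Malat1 promoter, chr19:5802623-5802922, minus strand: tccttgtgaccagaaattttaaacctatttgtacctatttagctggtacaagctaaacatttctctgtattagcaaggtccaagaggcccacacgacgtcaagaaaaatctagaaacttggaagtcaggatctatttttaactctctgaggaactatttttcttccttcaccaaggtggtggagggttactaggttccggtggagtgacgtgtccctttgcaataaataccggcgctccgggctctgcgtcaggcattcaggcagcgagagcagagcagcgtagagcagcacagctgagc
The Meg3 window holds the letters of the cAMP response element at -57 from the start site, the fourth motif at -100 and the second close to the start site, and the Malat1 window holds none of the 4. Of 32851 mouse promoters of the same length, 1.79% hold the first motif, 13.6% the second, 35.7% the third and 37.4% the fourth. A match of letters is a description and not a site in use.

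Both library kits start cDNA at runs of A, so the longest run of A inside 1 transcript of each gene is given. Shown are 4 of them with 15 bases on either side and the run in capitals. The sequences are from the GENCODE vM21 transcripts of GRCm38.
Meg3, chr12:109545802-109545847, plus strand: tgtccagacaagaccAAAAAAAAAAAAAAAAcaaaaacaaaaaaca
Malat1, chr19:5795973-5796014, minus strand: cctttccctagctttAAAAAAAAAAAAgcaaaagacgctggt
Neat1, chr19:5835919-5835955, minus strand: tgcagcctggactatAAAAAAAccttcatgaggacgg
Miat, chr5:112229198-112229231, minus strand: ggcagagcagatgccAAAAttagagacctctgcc
The longest run was 16 A in Meg3, 15 in Rian, 12 in Malat1, 17 in Snhg14 and 41 in Kcnq1ot1, and 8 in Snhg11, 7 in Neat1, 5 in Mirg and in Peg13 and 4 in Miat. These values leave out introns and exons of other transcripts. The transcript of Mirg, for one, has 3822 bases, and all its exons together have 7292. Among transcripts of like length, 29.4% held a run of at least 12 A for the length of Meg3 and 19.2% for that of Malat1. Whether reads began at these runs was not tested. Set beside the changes in the ablated striatum given next, 5 genes had a run of at least 12 A in the transcript used. Their log2 fold changes were 1.08 for Meg3, 0.77 for Rian, 1.05 for Malat1, 0.13 for Snhg14 and 0.86 for Kcnq1ot1. Those of the 5 genes with shorter runs in that transcript were 0.98 for Mirg, -0.16 for Neat1, 1.08 for Miat, 0.87 for Snhg11 and -0.40 for Peg13.

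The 3 RNAs of the Dlk1-Dio3 domain also carry microRNAs, of which RefSeq lists 3 mature sequences within Meg3, 6 within Rian and 26 within Mirg. Mature microRNAs were not measured in these libraries, and 5 of them are shown to identify the hosts, with the seed (bases 2 to 8) in capitals.
mmu-miR-770-5p (Meg3): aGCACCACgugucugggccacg
mmu-miR-370-3p (Rian): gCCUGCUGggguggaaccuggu
mmu-miR-134-5p (Mirg): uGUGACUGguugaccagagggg
mmu-miR-453 (Mirg): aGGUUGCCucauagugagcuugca
mmu-miR-496a-5p (Mirg): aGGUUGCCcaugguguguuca
The last 2 were the one pair among the 35 that shared a seed.

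Malat1 was the highest of the 10 genes in both tissues. In the striatum each transcript is counted from its 3′ end. There Malat1 and Meg3 had means of 4161 ± 1767 and 3971 ± 1346 CPM over the 10 control mice (SD), and differed by less than their spread. Snhg11 followed with 1116 ± 402 CPM, Peg13 with 232 ± 58.0 CPM and Neat1 with 132 ± 51.3 CPM, and the last 5 genes had 14.9 to 63.1 CPM. Over all 15 striatum libraries, the ablated ones included, Malat1 and Meg3 had the 7th and 8th highest mean log2 CPM of the 15419 genes tested. In the SVZ, where whole transcripts were read, levels were set per length as RPKM, the CPM divided by the exon length in kilobases. This length takes all annotated exons of a gene, from 4725 bases in Peg13 to 93092 in Kcnq1ot1. Since it is not that of the transcripts expressed, the order of the genes also depends on it. Malat1 had 84.0 ± 20.7 RPKM in the control mice (SD, n = 10), Snhg11 30.5 ± 9.58, Meg3 29.7 ± 7.21 and Peg13 25.1 ± 5.79. The last 3 of these did not differ beyond their spread. The other 6 genes had 0.716 to 2.87 RPKM, with Kcnq1ot1 the lowest.

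In the striatum Meg3 was the 1 gene of the list in which every ablated library lay above every control library, which 0.279% of the 15419 genes tested did. Its level was 8428, 8545, 8432, 7249 and 9376 CPM in the ablated mice, 6569.7, 5112 and 3226 CPM in NestinTK- GCV, 3416, 4007 and 4272 CPM in NestinTK- PBS and 2688, 5254, 2848 and 2319 CPM in NestinTK+ PBS mice. The highest control mouse was G1. The means were 8406 ± 758 CPM (SD, n = 5) in the ablated group and 3971 ± 1346 CPM (SD, n = 10) over all controls, or 1.08 higher on the log2 scale (standard error 0.179, BH-adjusted p = 0.0117 by edgeR's QL test), the 4th lowest p-value of all genes. Meg3 is a growth-restraining RNA of the imprinted domain, and it held 0.759% to 0.917% of the counts of the ablated libraries and 0.244% to 0.644% of those of the control libraries.

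Its neighbours Rian and Mirg were much less abundant, and their group means were likewise highest in the ablated mice. Rian, the host of the small nucleolar RNAs of the domain, had 58.1, 76.5, 86.1, 68.0 and 78.7 CPM in the ablated mice, 69.3, 53.7 and 37.98 CPM in NestinTK- GCV, 41.4, 49.2 and 48.6 CPM in NestinTK- PBS and 27.3, 55.7, 32.6 and 16.0 CPM in NestinTK+ PBS mice. Mirg, the host of the microRNA cluster, had 85.2, 81.2, 93.8, 60.9 and 104 CPM in the ablated mice, 76.9, 55.5 and 37.0 CPM in NestinTK- GCV, 25.2, 27.9 and 41.3 CPM in NestinTK- PBS and 44.0, 80.0, 32.8 and 12.8 CPM in NestinTK+ PBS mice. Both overlapped with the controls, Rian through G1 and Mirg through G1 and T2. Their log2 fold changes were 0.77 (standard error 0.211) and 0.98 (standard error 0.265), with BH-adjusted p = 0.140 and 0.127 by edgeR's QL test.

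Malat1, the speckle RNA, had 8509, 9284, 9472, 8867 and 7089 CPM in the ablated striatum, 8414, 3160.3 and 2269 CPM in NestinTK- GCV, 4621, 4215 and 5009 CPM in NestinTK- PBS and 3046, 4794, 3452 and 2628 CPM in NestinTK+ PBS mice. G1 stood within the ablated range and apart from the 2 other mice of its group, and without it the highest control was P3. The log2 fold change was 1.05 (standard error 0.205, BH-adjusted p = 0.0376 by edgeR's QL test), and it fell just short of a 2-fold change without G3 (0.98) or without T4 (1.00). Neat1, whose gene is next to Malat1, did not go with it. Its level was 153, 95.7, 80.9, 103 and 159.7 CPM in the ablated mice, 194, 56.2 and 103 CPM in NestinTK- GCV, 179, 123 and 213 CPM in NestinTK- PBS and 82.6, 138, 88.7 and 145 CPM in NestinTK+ PBS mice, with a log2 fold change of -0.16 (95% interval -0.65 to 0.34).

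Miat, a rarer RNA of neuronal nuclei, had 26.8, 35.2, 37.3, 26.4 and 30.2 CPM in the ablated striatum, 18.2, 11.0 and 14.4 CPM in NestinTK- GCV, 10.5, 7.41 and 11.6 CPM in NestinTK- PBS and 11.8, 32.1, 10.4 and 21.3 CPM in NestinTK+ PBS mice. T2 was the 1 control mouse within the ablated range. With 34 to 101 counts per library, its log2 fold change was 1.08 (standard error 0.243, BH-adjusted p = 0.0636 by edgeR's QL test).

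Among the hosts of small nucleolar RNAs, Snhg11 had 2055, 1968, 2107, 1678 and 2393 CPM in the ablated striatum, 1954, 1087 and 987 CPM in NestinTK- GCV, 896, 1113 and 1288 CPM in NestinTK- PBS and 758, 1606, 736 and 734 CPM in NestinTK+ PBS mice. G1 was again the 1 control mouse within the ablated range, and T2 stood well above the 3 others of its group. The log2 fold change of Snhg11 was 0.87 (standard error 0.184, BH-adjusted p = 0.0484 by edgeR's QL test). Snhg14 had 53.8 to 85.3 CPM in the ablated and 48.1 to 74.3 CPM in the control mice, and its log2 fold change was 0.13 (95% interval -0.12 to 0.38). Ube3a, which shares its exon bases, was at 0.05.

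Kcnq1ot1 and Peg13, which like Snhg14 are imprinted and overlap protein-coding genes, went different ways. Kcnq1ot1 had 40.5, 57.6, 45.4, 55.8 and 32.9 CPM in the ablated striatum, 40.5, 26.0 and 32.1 CPM in NestinTK- GCV, 23.3, 27.7 and 30.9 CPM in NestinTK- PBS and 15.5, 19.2, 22.4 and 18.7 CPM in NestinTK+ PBS mice, the lowest of the 4 groups. Its log2 fold change was 0.86 (standard error 0.185, BH-adjusted p = 0.0575 by edgeR's QL test). Peg13 had 139, 181, 186, 170.3 and 202 CPM in the ablated mice, 281, 298 and 326 CPM in NestinTK- GCV, 140.2, 208 and 175 CPM in NestinTK- PBS and 204, 255, 239 and 198 CPM in NestinTK+ PBS mice. The NestinTK- GCV mice were above every other library, as they were in 1.28% of all genes tested, and the log2 fold change of ablated against control mice was -0.40 (standard error 0.158, BH-adjusted p = 0.3597 by edgeR's QL test). Trappc9, around Peg13, was at -0.09.

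**Figure D1:**
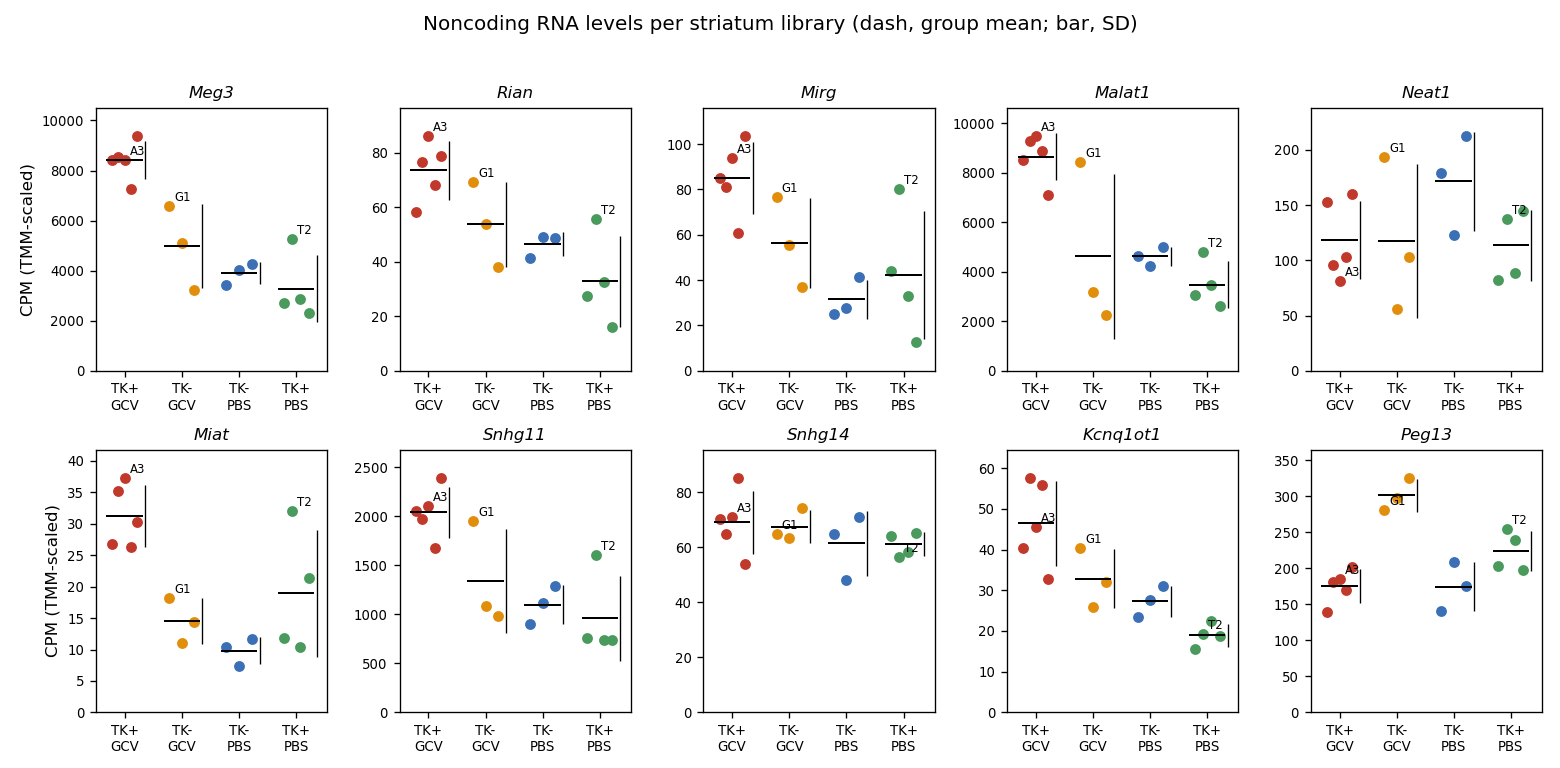
Level of each of the 10 genes in every striatum library (y axis, CPM with TMM scaling, from 0) by group (x axis; points, mice; dash, group mean; bar, SD). The 5 ablated mice are above all control mice for Meg3 (7249 to 9376 against 2319 to 6569.7 CPM), while Neat1 and Snhg14 overlap throughout and Peg13 is highest in the NestinTK- GCV mice.

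Over the list, 3 of the 10 genes (Meg3, Malat1 and Miat) were called in the striatum at the study's thresholds, which ask for p of 0.01 or less before adjustment and a change of 2-fold or more, against 0.694% of the genes tested. Under a BH-adjusted p-value of 0.05 there were also 3 (Meg3, Malat1 and Snhg11), against 0.182%. None of the 3 stayed under 0.05 in all 24 settings, which vary the processing or leave out a library. By the edgeR, DESeq2 or limma-voom test of a setting, their BH-adjusted p-values reached 0.0910 for Meg3, 0.165 for Malat1 and 0.177 for Snhg11. At an unadjusted p-value under 0.05, 7 were higher, against 5.18% of all genes, and 1 (Peg13) was lower, against 5.31%. The median log2 fold change of the 10 was 0.86 and that of all genes 0.00. Since the list was made with this comparison known, nothing is read from these counts. Control mouse G1 held 4 of the overlaps: other than G1, every control library lay under every ablated one for Meg3, Rian, Malat1, Snhg11 and Kcnq1ot1, against 0.441% of all genes.

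The 4 groups were then set against each other in 1 fit, in which contrasts share groups and are given side by side. Ablated mice against NestinTK+ PBS mice, the effect of GCV in mice with the transgene, gave 6 called genes, against 1.35% of all genes. The log2 fold changes were 1.36 for Meg3, 1.31 for Malat1, 1.29 for Kcnq1ot1, 1.18 for Rian, 1.09 for Snhg11 and 1.02 for Mirg, with standard errors of 0.194 to 0.307. BH-adjusted p-values of edgeR's QL test were 0.00528 for Meg3 and Kcnq1ot1, 0.0404 for Malat1, 0.0429 for Rian and Snhg11 and 0.191 for Mirg. The NestinTK+ PBS mice had the lowest group mean for Meg3, Rian, Malat1, Snhg11 and Kcnq1ot1, and without T4 the count of called genes was 3. Ttr, the choroid plexus marker, took 0.142% of the counts of striatum library T4 and at most 0.00300% in each other striatum library. Whether this bears on the levels in T4 was not tested. DESeq2 did not call Mirg in this contrast (unadjusted p = 0.0149).

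Ablated against NestinTK- GCV mice, the effect of the transgene under GCV, gave 1 called gene, Miat at 1.10 (standard error 0.297, BH-adjusted p = 0.0413 by edgeR's QL test), against 2.1% of all genes. Meg3 and Malat1 were at 0.76 and 0.91 in this contrast, with BH-adjusted p = 0.0570 and 0.0650 by edgeR's QL test. Without G1 the count was 3 and without G2 it was 0. Peg13 was at -0.78 (standard error 0.145, BH-adjusted p = 0.00567 by edgeR's QL test), short of the 2-fold change that a call needs.

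The effects of each factor alone gave 0 calls. For GCV in NestinTK- mice, where 2.46% of all genes were called, Malat1 was at 0.00 and Meg3 at 0.35, with 95% intervals of -0.61 to 0.61 and -0.15 to 0.85, and Peg13 was at 0.79 (standard error 0.165, BH-adjusted p = 0.0180 by edgeR's QL test). At an unadjusted p-value under 0.05, Mirg (0.84) and Peg13 passed, as did 16.1% of all genes. For the transgene under PBS, where 0.83% of all genes were called, the log2 fold changes ran from -0.60 for Neat1 to 0.92 for Miat, and Miat, Peg13 (0.36) and Kcnq1ot1 (-0.53) had an unadjusted p-value under 0.05, as did 6.41% of all genes. By limma-voom and by DESeq2 the 10 genes also gave 0 calls in both contrasts.

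The interaction, which asks whether GCV acted differently with and without the transgene, gave 4 called genes, against 3.28% of all genes. Malat1 was at 1.31 (standard error 0.384), Kcnq1ot1 at 1.03 (0.297) and Meg3 at 1.01 (0.312), with BH-adjusted p = 0.0930, 0.0893 and 0.109 by edgeR's QL test. Peg13, at -1.14 (standard error 0.213, BH-adjusted p = 0.0211 by edgeR's QL test), was higher under GCV without the transgene and lower with it. DESeq2 did not call Malat1 here (unadjusted p = 0.0147). The count was 7 without G1 and 2 without any one of G2, G3, P3 or T1, so that single control mice decided how many genes passed.

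**Figure D2:**
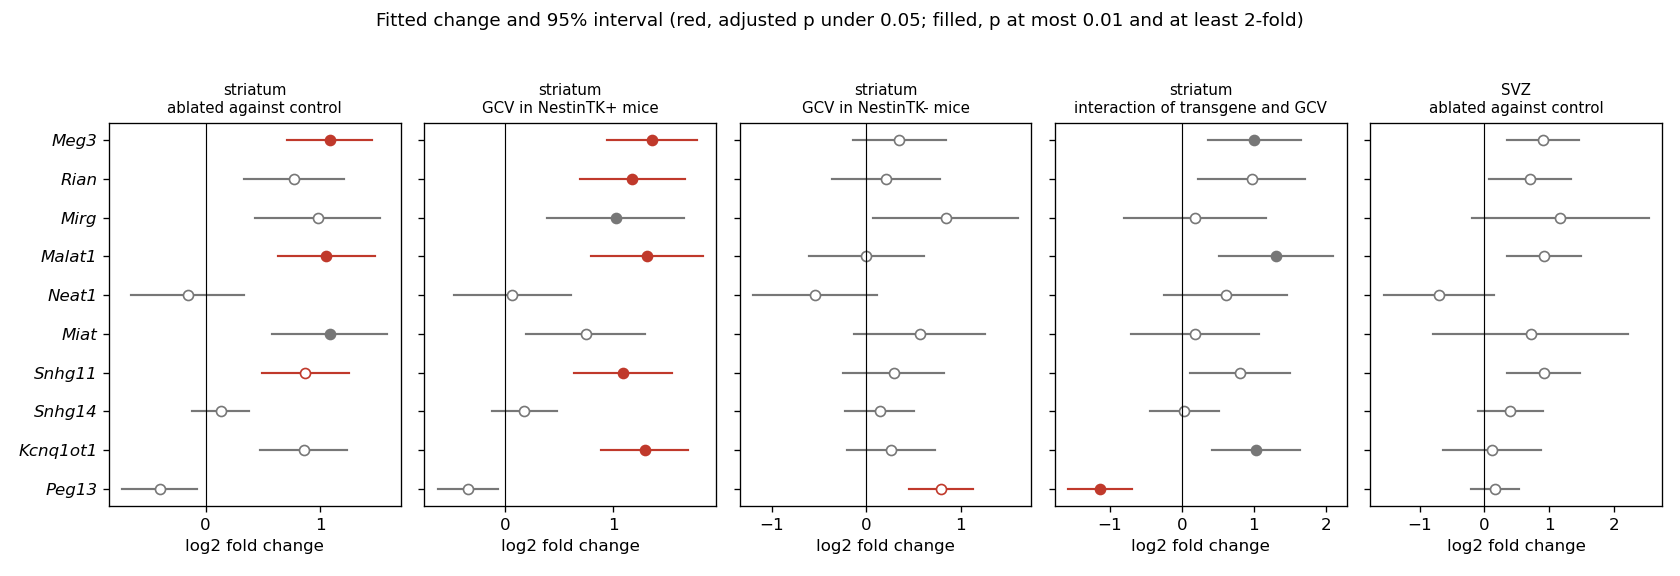
Fitted log2 fold change (x axis) of each gene (y axis) with its 95% interval, by tissue and contrast (red, adjusted p under 0.05; filled, called at the thresholds of the study). In the ablated striatum Meg3 (1.08) and Malat1 (1.05) are red and filled, Miat (1.08) is filled, and Neat1, Snhg14 and Peg13 are near or below 0.

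In the SVZ the same genes were spread more widely and 0 of the 10 were called in ablated against control mice, where 1.59% of the 16375 genes tested were called. DESeq2 and limma-voom gave 0 as well. At an unadjusted p-value under 0.05, 4 were higher, against 3.58% of all genes, and 0 lower, against 6.2%. These 4 were Meg3 (log2 fold change 0.90, standard error 0.267), Malat1 (0.92, 0.273), Snhg11 (0.91, 0.269) and Rian (0.70, 0.300), with BH-adjusted p-values of 0.347 to 0.446 by edgeR's QL test. Over 25 settings, by the edgeR, DESeq2 or limma-voom test of each, that of Snhg11 ran from 0.0349 to 0.673. The lowest were 0.136 for Meg3, 0.160 for Malat1 and 0.309 for Rian. The median log2 fold change of the 10 was 0.71 and that of all genes -0.03.

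Ablated mice A2 and A3 had the highest levels of Meg3, Malat1 and Snhg11. Meg3 had 543, 1173, 2027, 513 and 752 CPM in the ablated SVZ, 528, 480.1 and 246 CPM in NestinTK- GCV, 598, 685 and 423 CPM in NestinTK- PBS and 547, 556, 662 and 638 CPM in NestinTK+ PBS mice. A1 and A4 lay within the control range, and no gene of the list had every ablated library above every control library, which 0.0977% of all genes had. Malat1 had 622, 1359.8, 2322, 533 and 719 CPM in the ablated mice and 356 to 801 CPM in the control mice, with A2 and A3 alone above them. Snhg11 had 262, 676, 817, 295 and 394 CPM in the ablated and 110.2 to 349.9 CPM in the control mice. Without A3, Meg3 was at 0.49 and Malat1 at 0.48, while without A1 or without A4 Meg3, Malat1 and Snhg11 were called, and without A5 Malat1 was.

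The rarer RNAs varied more in the SVZ. Rian had 90.9, 81.8, 103, 30.7 and 46.8 CPM in the ablated and 24.0 to 87.2 CPM in the control mice, and Mirg had 4.14 to 26.2 CPM against 0.111 to 14.0 CPM, with 1 count in P3. Miat had 10.3, 45.5, 4.60, 8.28 and 0.124 CPM in the ablated mice and 1.89 to 14.8 CPM in the control mice. A2 was far above and A5, with 1 count, far below the others, and the log2 fold change of 0.72 was -0.51 without A2. Kcnq1ot1 had 54.0, 57.2, 181, 31.3 and 39.4 CPM in the ablated and 36.3 to 114 CPM in the control mice, and its log2 fold change of 0.12 was -0.54 without A3. Neat1 (-0.70), Snhg14 (0.40) and Peg13 (0.17) had 95% intervals that held 0. Peg13 was the steadiest gene here, with 107 to 152 CPM in the ablated and 84.6 to 157 CPM in the control mice.

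Of the 4-group contrasts in the SVZ, the transgene under GCV gave 1 called gene, Meg3 at 1.26 (standard error 0.382, BH-adjusted p = 0.667 by edgeR's QL test), against 0.953% of all genes, and it was not called without A3 or without G3. The other 4 contrasts gave 0 calls by this test. At an unadjusted p-value under 0.05, Meg3, Malat1 and Snhg11 passed for GCV in NestinTK+ mice (0.74, 0.93 and 0.87), against 7.13% of all genes. Kcnq1ot1 passed for GCV in NestinTK- mice (-1.17), against 7.65%, and Meg3 and Kcnq1ot1 for the interaction (1.18 and 1.54), against 5.06%. For the transgene under PBS 0 passed, against 2.76%.

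**Figure D3:**
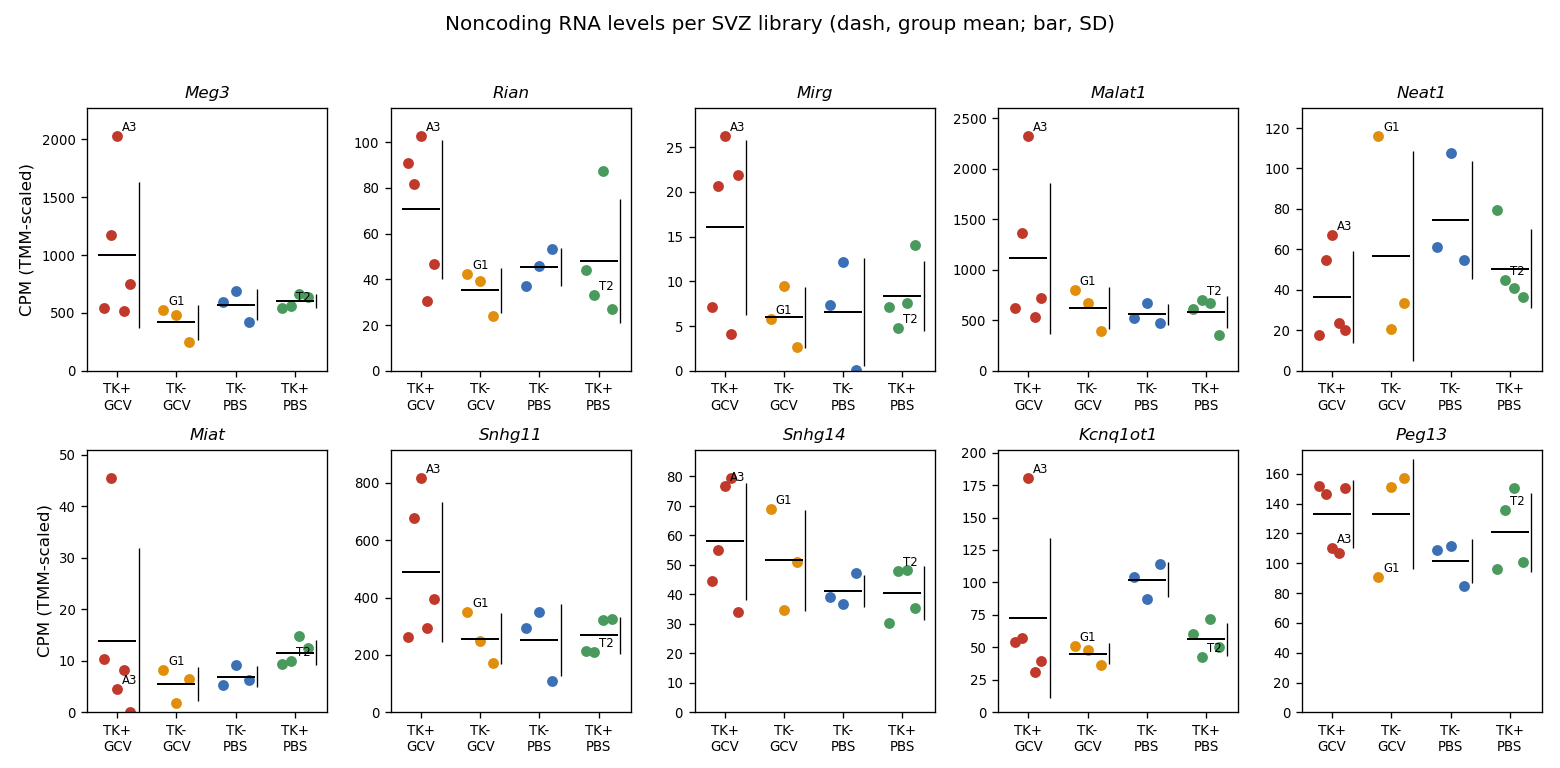
Level of each of the 10 genes in every SVZ library (y axis, CPM with TMM scaling, from 0) by group (x axis; points, mice; dash, group mean; bar, SD). Ablated mouse A3 reaches 2027 CPM for Meg3 and 2322 CPM for Malat1 while A1 and A4 are within the control range.

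In the striatum 7 of the 10 genes, and in the SVZ Meg3, Malat1, Snhg11 and Neat1, also varied more between mice of a group than at least 87.0% of the 500 tested genes nearest in level. In the striatum the within-group SD of log2 CPM was 0.475 for Malat1 and 0.367 for Meg3, and the median of the 500 tested genes nearest in level was 0.199 for each. Malat1 and Meg3 had the 7th and 8th highest level there, so that most of these 500 genes lay below them. Malat1 and Mirg were above 99.4% of their nearest genes, Neat1 above 98.8%, and Kcnq1ot1, Peg13 and Snhg14 above 42.6% to 53.8%. In the SVZ the SDs of Malat1, Snhg11 and Meg3 were 0.638, 0.646 and 0.587, above 97.6% to 98.6% of the nearest genes, whose median was 0.283 to 0.296.

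The share of all counts that the 10 genes held was 2.02%, 2.11%, 2.12%, 1.92% and 1.91% in the ablated striatum, 1.73%, 0.960% and 0.686% in NestinTK- GCV, 0.959%, 0.961% and 1.11998% in NestinTK- PBS and 0.661%, 1.199%, 0.746% and 0.649% in NestinTK+ PBS mice. The groups did not overlap, and G1 was the control mouse nearest to the ablated ones. The ablated mean of 2.02% ± 0.100 (SD, n = 5) was 2.08 times the control mean of 0.967% ± 0.331 (SD, n = 10), given without a test since the list was chosen on such values. The 8 genes other than Meg3 and Malat1 gave a ratio of 1.64, and for them the groups overlapped (0.235% to 0.299% against 0.115% to 0.265%). Counting error was small beside these gaps, with exact 95% binomial intervals of at most 0.0175 percentage points on either side, which cover counting error only.

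Classes of RNA that hold none of the 10 genes were tested by a two-sided exact permutation test over the 3003 ways to choose 5 of 15 mice, with adjustment over 8 tests in both tissues. In the striatum, 2796 genes annotated as sense intronic or as transcripts still to be tested by experiment (TEC), other than those that overlap the 10 genes and here called intronic-type, held 0.189% ± 0.00979 of the counts in the ablated mice (SD, n = 5) and 0.131% ± 0.0256 in the control mice (SD, n = 10). The ranges, 0.177% to 0.199% and 0.0967% to 0.175%, did not overlap (exact permutation p = 0.000666, the smallest this design can give, and 0.00533 adjusted), and G1 was again the highest control. Intronic-type genes were taken by annotation alone. Whether the TEC genes lie in introns was not looked at, so their share is not a measure of unspliced RNA. The 38 other nuclear noncoding RNAs of a list held 0.204% against 0.175% (exact permutation p = 0.00599, 0.0160 adjusted), with P3 as high as the ablated mice. This list, like the 10 genes, was chosen with earlier results of these libraries known, so its p-values describe it and are not independent evidence. Ribosomal protein genes held 2.12% against 1.95% (exact permutation p = 0.0147, 0.0293 adjusted) and mitochondrial transcripts 7.40% against 6.95% (exact permutation p = 0.240, 0.287 adjusted).

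In the SVZ the 10 genes held 0.171%, 0.318%, 0.550%, 0.160% and 0.210% of the counts in the ablated mice and 0.123% to 0.217% in the control mice. A2 and A3 alone stood above the controls, and the ratio of the means was 1.58 with all mice and 1.21 without A3. The intronic-type genes held 0.119% to 0.380% in the ablated and 0.0959% to 0.162% in the control mice, with A3 at 0.380% and A2 at 0.172% (exact permutation p = 0.251, 0.287 adjusted). Mitochondrial transcripts held 15.2% ± 1.47 in the ablated (SD, n = 5) and 11.1% ± 2.39 in the control mice (SD, n = 10; exact permutation p = 0.00333, 0.0133 adjusted). Ribosomal protein genes (2.15% against 2.38%) and the 37 other nuclear noncoding RNAs (0.145% against 0.138%) did not pass the test (exact permutation p = 0.133 and 0.517, 0.213 and 0.517 adjusted).

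Other properties of the libraries moved with the striatal share, and their part in it was not tested. Counts on 3 genes of the ribosomal RNA locus, chosen after the data were seen, made up 4.09% to 6.03% in the ablated and 4.71% to 10.5% in the control striatum, and 1.37% to 3.62% against 0.485% to 1.54% in the SVZ. The ablated striatum libraries were among the shallower ones, with 2.63 to 3.37 M counts against 2.78 to 4.69 M, and T2, the shallowest control, had the highest control share on the 10 genes after G1. With mitochondrial transcripts or the ribosomal RNA locus left out of the total, the striatal ratio of ablated to control was at most 2.09.

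**Figure D4:**
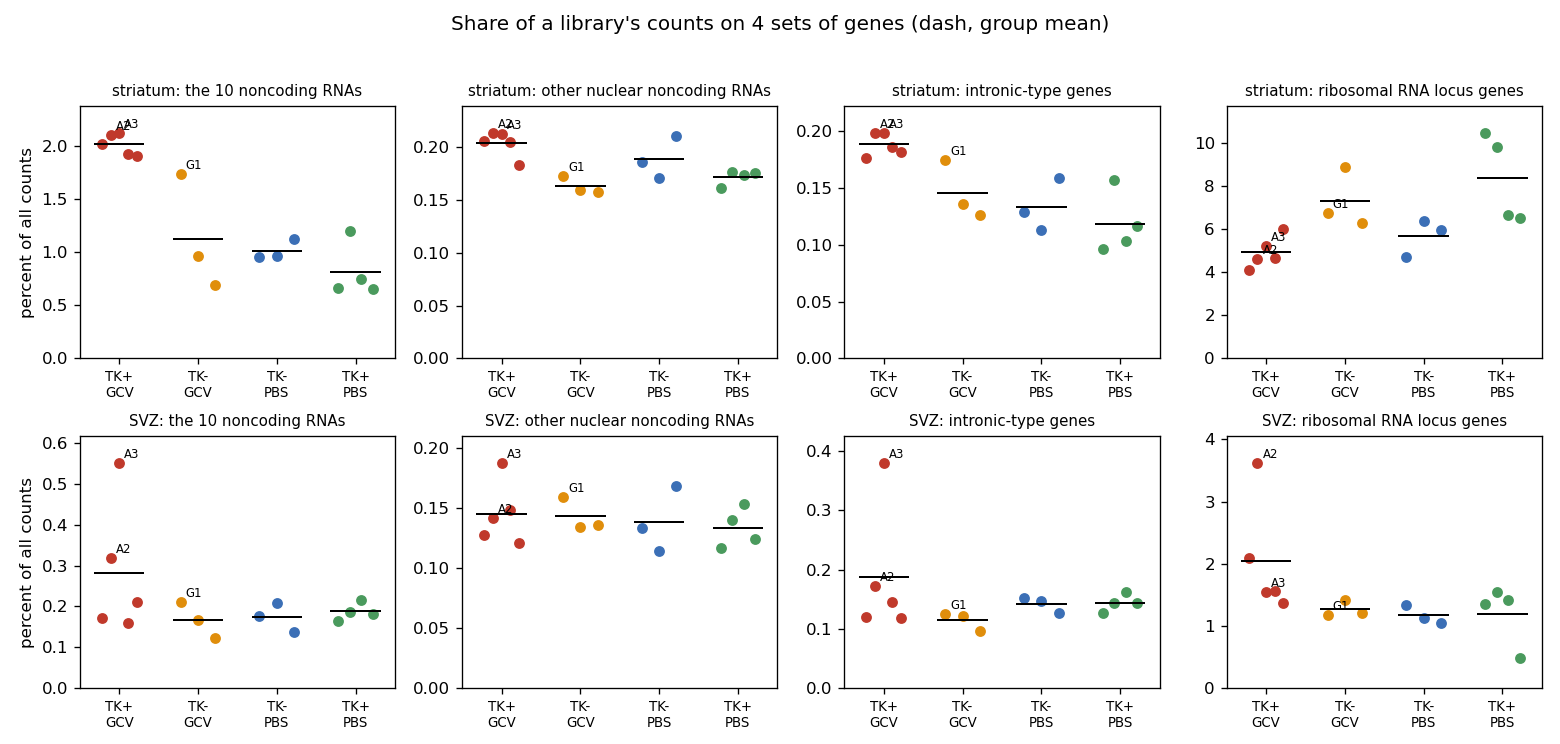
Percent of a library's counts (y axis, from 0) on 4 sets of genes, by group (x axis) for the striatum and the SVZ (points, mice; dash, group mean). In the striatum the ablated mice hold 1.91% to 2.12% on the 10 genes and 0.177% to 0.199% on the intronic-type genes (annotated as sense intronic or TEC), above all control mice, of which G1 is the highest. In the SVZ A3 stands apart.

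Since both tissues came from the same mice, each gene's log2 CPM was compared between them over the 15 mice, with adjustment over the 10 genes. Malat1 had Pearson's r = 0.643 (permutation p = 0.00474, 0.0474 adjusted) and Spearman's rho = 0.621 (permutation p = 0.0151, 0.151 adjusted). Leaving out A2 and A3, the mice farthest from the SVZ median, gave r = 0.513, deviations from the group means gave 0.465, and the 10 control mice gave 0.634, or 0.255 without G3 and T4, so that the relation within the control mice rests on those 2. For the other 9 genes adjusted permutation p-values of r were at least 0.142. Meg3, whose striatal groups do not overlap, had r = 0.244 over deviations from the group means and -0.0935 over the 10 control mice.

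The genes around the 10 RNAs were read from lists of their domains and partners, with the same fit. Of the 4 genes tested in the Dlk1-Dio3 domain besides Meg3, Rian and Mirg, 1 was higher in the ablated striatum at an unadjusted p-value under 0.05, against 5.18% of all genes. It was Dlk1, a membrane protein expressed from the paternal copy, at 1.32 (standard error 0.321, BH-adjusted p = 0.0874 by edgeR's QL test). Dlk1 had 44.1 to 88.8 CPM in the ablated and 7.55 to 58.2 CPM in the control mice. Dio3, Wdr25 and Begain were at 0.90, 0.34 and 0.09 and did not pass. In the SVZ Begain (0.60) and Dio3 of 5 such genes were higher at that level, against 3.58% of all genes. Dio3 had 0 to 8.91 CPM in the ablated and 0.139 to 1.22 CPM in the control mice, and Dlk1 was at -1.01.

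In the Snrpn-Ube3a domain of Snhg14, Snrpn, a splicing protein gene, was at -0.47 in the striatum, with an unadjusted p-value under 0.05. In the domain of Kcnq1ot1, that RNA was the 1 of 7 tested genes that passed in the striatum, where 5.18% of all genes were higher and 5.31% lower. In the SVZ Cdkn1c and Ascl2 of this domain were lower at that level, against 6.2% of all genes. They had 0.124 to 5.84 against 0 to 86.9 CPM for Cdkn1c and 0 to 0.119 against 0 to 8.87 CPM for Ascl2. Kcnq1ot1 itself was at 0.12 in the SVZ, and a link between it and the 2 genes was not tested. In the domain of Peg13, Peg13 alone of 4 passed in the striatum and 0 of 5 in the SVZ.

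Of 27 proteins of nuclear speckles and splicing, where Malat1 resides, 14 were higher and 1 lower in the ablated striatum at an unadjusted p-value under 0.05, and the median log2 fold change was 0.27. Of all striatum genes 5.18% were higher and 5.31% lower at that level, and this list too was chosen with earlier results known. Srsf5, a splicing factor of the SR family, was at 0.80 (standard error 0.158, BH-adjusted p = 0.0381 by edgeR's QL test), and Luc7l3, Sf3b1 and the splicing kinase Clk1 were at 0.39, 0.38 and 0.58. The 27 genes summed to 4267 to 4527 CPM in the ablated and 3502 to 4225 CPM in the control mice, with G1 at 4178. In the SVZ 2 were higher (Srsf5 at 0.53 and Srrm2 at 0.37) and 1 lower (Sf3b1 at -0.44), with a median of 0.02. Of all SVZ genes 3.58% were higher and 6.2% lower at that level. Of 25 paraspeckle proteins, which gather on Neat1, 4 were higher in the striatum (Tardbp 0.35, Ewsr1 0.46, Hnrnph3 0.35 and Cpsf6 0.30) and 1 lower, with a median of 0.05, and in the SVZ 0 were higher and 1, Nono, was lower (-0.55). The shares over all genes are those given above for each tissue.

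Of 30 other nuclear noncoding RNAs tested in the striatum, 5 were higher and 2 lower at an unadjusted p-value under 0.05. Of all genes 5.18% were higher and 5.31% lower at that level, and the median of the 30 was 0.22. Snhg1, Tug1 and Mir124a-1hg, the last a host of a neuronal microRNA, were at 0.58, 0.49 and 0.71, and Sox2ot, which overlaps Sox2, at -0.47. In the SVZ 1 of 28 passed, against 3.58% of all genes higher and 6.2% lower, and the median was 0.20. It was Xist, the RNA of the inactive X chromosome, at 0.61. The labels give no sex, and whether the groups differed in it was not tested from the counts. Xist is on the list of other nuclear noncoding RNAs whose share of counts was compared above.

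**Figure D5:**
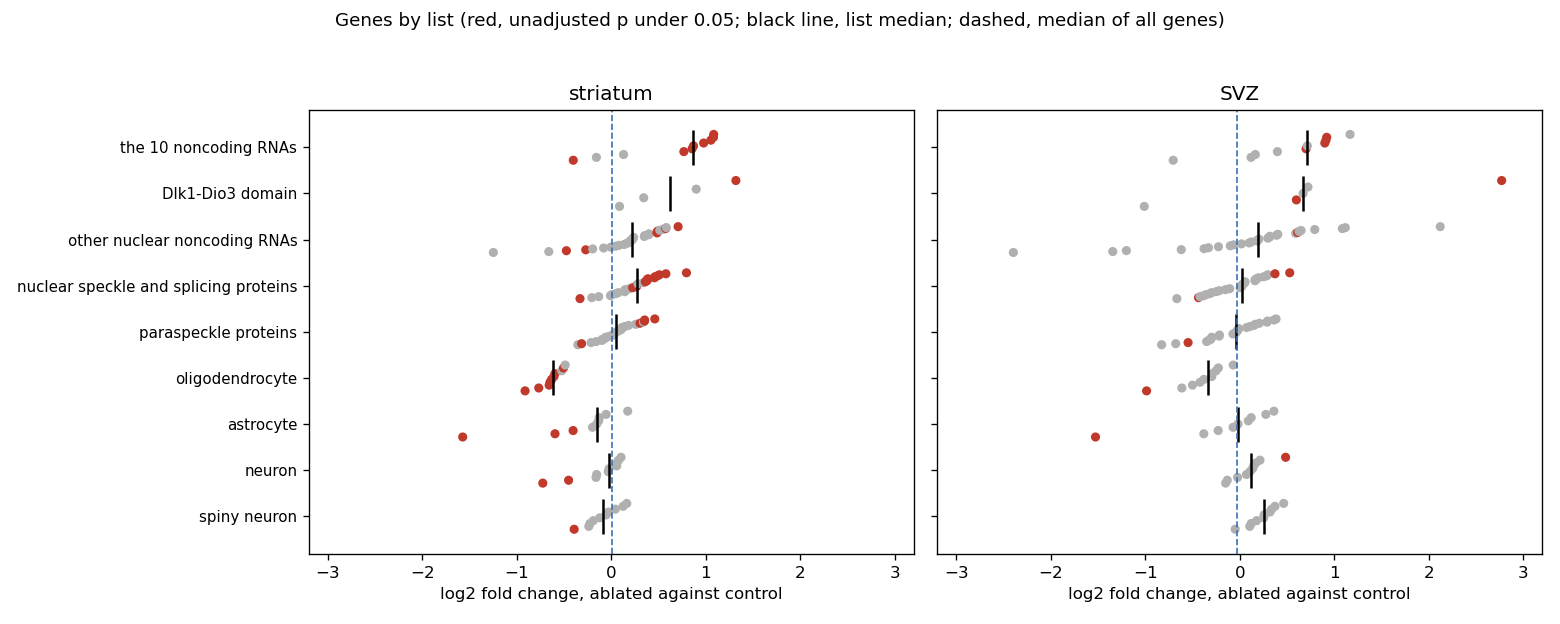
Log2 fold change of ablated against control mice (x axis) for the genes of each list (y axis), by tissue (points, genes; red, unadjusted p under 0.05; black line, list median; dashed line, median of all genes), with the Dlk1-Dio3 row holding the domain genes other than the 10. In the striatum the 10 RNAs have a median of 0.86, the speckle and splicing proteins 0.27 and the oligodendrocyte markers -0.62.

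Markers of cell types moved as well, and their part in the levels of the 10 RNAs was not tested. In the striatum all 10 oligodendrocyte markers were lower, 8 of them at an unadjusted p-value under 0.05, with a median of -0.62, and they summed to 2340 to 2990 CPM in the ablated and 2637 to 6444 CPM in the control mice. At that level 5.31% of all striatum genes were lower. Mag (-0.91), Mal (-0.61) and Ermn (-0.77) had BH-adjusted p-values of 0.0117 to 0.0381 by edgeR's QL test. Of 10 markers of neurons in general 2 were lower at that level, the neurofilament genes Nefl (-0.45) and Nefm (-0.72), with a median of -0.03. Of 10 spiny neuron markers 1 was lower, the adenosine receptor Adora2a (-0.39), with a median of -0.09, and 3 of 9 astrocyte markers were lower, led by Gfap at -1.57. Spiny neuron markers summed to 8970 to 10475 CPM in the ablated and 4636 to 12147 CPM in the control striatum. Choroid plexus markers there summed to 17.0 to 33.2 against 14.1 to 1436 CPM, and cortical excitatory neuron markers to 13.7 to 136 against 6.97 to 616 CPM. In G1 the oligodendrocyte markers summed to 3270.3 CPM. In the SVZ 7 of 12 neuroblast, 4 of 9 ependymal and 9 of 9 choroid plexus markers were lower at that level, against 6.2% of all genes. The choroid plexus markers summed to 26.0 to 245 CPM in the ablated and 17.1 to 103463 CPM in the control mice. The control median was 215 CPM, and control libraries P1, P2 and T1 were those with Ttr over 1% of the counts. Microglia, endothelial and cortical excitatory neuron lists had 1, 0 and 0 markers past an unadjusted p-value of 0.05 in the striatum and 1, 1 and 0 in the SVZ.

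Outside the list, the 5 genes whose log2 CPM was most like that of Malat1 over the 15 striatum libraries were Pnisr, Srsf5, Taf1d, Rnpc3 and Luc7l3, with Pearson's r of 0.980, 0.958, 0.932, 0.929 and 0.921, or 0.951, 0.888, 0.827, 0.883 and 0.871 over deviations from the group means. Pnisr and Srsf5 were at log2 fold changes of 0.71 and 0.80 in the ablated mice, with BH-adjusted p = 0.0394 and 0.0381 by edgeR's QL test. For Meg3 they were C78859, Ttc14, Lrrc45, Mir124a-1hg and A230103L15Rik, with r of 0.902 to 0.927 and, over deviations, 0.720 to 0.897. In the SVZ the likest to Meg3 were Tmem181b-ps, Gm13630, Cxcl12, Gm44240 and Btbd3, with r of 0.815 to 0.884, at least 0.737 over deviations, and Spearman's rho down to 0.489. The likest to Malat1 there were Nos1, Gm13630, Cxcl12, Gm38451 and Gm43860, with r of 0.820 to 0.865, at least 0.754 over deviations, and rho down to 0.404, so that by ranks other genes were nearer. These are descriptions over libraries that share their depth and their group differences.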

How the data were processed

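Each of 15 mice gave an SVZ and a striatum library. The Methods name SMART-Seq v4 as the SVZ kit and QuantSeq 3′ FWD as that of the striatum. Per the authors' Methods and processing notes, reads of one end were trimmed (Trimmomatic), aligned with STAR 2.5.3a to mm10 with Gencode M16 and counted with featureCounts, and the authors deposited raw counts per gene. The Methods and the processing notes name different Trimmomatic versions, and no strand setting is given in the sources used here.

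Tissues were fitted apart, since their kits differ. A gene was tested where 3 or more libraries exceeded 1 CPM, and counts were normalized with TMM and fitted with edgeR 4.0.16 (R 4.3.3), with adjustment over all genes tested. Genes were called at the study's thresholds, although the study names limma. Shares were compared by exact permutation and correlations with 100000 resamples (scipy 1.17.1). The fit was tested on simulated data. The 10 genes and all lists were chosen with earlier results of these data known. Genes named are the 10, those of their domains, at most 4 of each other list by lowest p, and the 5 likest to Meg3 and to Malat1. RPKM used the summed exon length of GENCODE vM21, to which 93.1% of the SVZ and 94.1% of the striatum symbols matched. Alternatives were other scalings, filters and tools (DESeq2 1.42.0, limma 3.58.1), and each library left out. Leaving out ribosomal RNA locus genes, total-count scaling and correlations over control mice were added after the data were seen. A result in the Snrpn-Ube3a domain is not reported here.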

Additional observations from a re-analysis of the deposited data

Results flagged for a closer look

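In 60 groups of 4 or 5 mice looked at, 1 library lay far from the others of its group in 4, and chance sets about 1 in 20 groups apart. In the striatum, Snhg11 was at 1606 CPM in NestinTK+ PBS mouse T2, with the next mouse of the group at 758 CPM. In the SVZ, ablated mouse A2 had 45.5 CPM of Miat, with the next mouse at 10.3 CPM. In ablated mouse A3, Kcnq1ot1 was at 181 CPM in the SVZ, with the next mouse at 57.2 CPM, and intronic-type genes held 0.380% of the counts, with the next mouse at 0.172%. Peg13 in the striatum differed between genotypes in its response to GCV, with an interaction of -1.14 on the log2 scale (standard error 0.213, BH-adjusted p = 0.0211 by edgeR's QL test), and with each mouse left out this term lay between -1.29 and -1.002.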

How the results depend on the processing

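Over 8 other settings of tool, filter, scaling and genes kept, 3 or 4 of the 10 genes were called in the ablated striatum, and over 9 other settings 0 in the SVZ, where total-count scaling put the median of all genes at -0.16. Limma-voom called 2 genes in the striatum for the transgene under GCV, and turned the SVZ log2 fold changes of Miat (-0.68), Kcnq1ot1 (-0.12) and Rtl1 (-1.47). With no filter on low counts, 1 gene was called in the SVZ for GCV in NestinTK- mice and 2 for the interaction, and without the libraries with Ttr over 1%, 1 for the transgene under PBS. Correlations between tissues changed over deviations from the group means and over control mice: Mirg (-0.223 and -0.261), Malat1 (0.465 and 0.634), Miat (0.0659 and 0.258), Snhg11 (-0.0276 and -0.131), Kcnq1ot1 (0.0551 and 0.0538), and Meg3 over control mice (-0.0935). The cause of these changes was not tested.

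With each library left out in turn, the number of called genes in the striatum lay between 2 and 4 for ablated against control, 3 and 7 for GCV in NestinTK+ mice, 0 and 3 for the transgene under GCV, 0 and 1 for GCV in NestinTK- mice, 0 and 1 for the transgene under PBS and 2 and 7 for the interaction. In the SVZ it lay between 0 and 3 for ablated against control, 0 and 1 for GCV in NestinTK+ mice, 0 and 2 for the transgene under GCV, 0 and 1 for GCV in NestinTK- mice and 0 and 1 for the interaction. Log2 fold changes turned in the SVZ for Miat (-0.51 to 1.06), Kcnq1ot1 (-0.54 to 0.32) and Rtl1 (-0.0235 to 1.05, below 0 without A3), and in the striatum for Begain (-0.00564 to 0.18, below 0 without A3). The SVZ ratio of the share on the 10 genes lay between 1.21 and 1.76. The SVZ difference in share lay between -0.00314 and 0.0134 percentage points for other nuclear noncoding RNAs and between -0.298 and -0.175 for ribosomal protein genes. No pairing of mice between groups was possible because each mouse belongs to 1 group and the replicate numbers were given in accession order.

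Depth limits the rarer RNAs: Mirg and Miat had as few as 1 count in an SVZ library, and small changes in them were not detectable.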
